A study of Drosophila melanogaster with 3 samples.

Results

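Binding of proboscipedia (pb) was examined at 10 genes of the neuroblast temporal cascade of Drosophila melanogaster: hb, Kr, nub, pdm2, cas, grh, svp, chinmo, Imp and Syp, out of 13945 protein-coding genes on the main chromosome arms. A peak was assigned to a gene when its summit lay inside the gene body or when that gene had the nearest protein-coding start site. By this rule the genes held 8 of the 2740 summits of the thresholded list, which the authors cut by the irreproducible discovery rate (IDR), and 94 of the 30000 of the combined list, called on all libraries together and reaching down into background. The assay was ChIP-seq (chromatin immunoprecipitation followed by sequencing) with an antibody against GFP, on whole embryos of mixed sex aged 0 to 24 h. The embryos came from 1 transgenic line that stably carries pb fused to GFP at its C terminus, with chromatin sheared to 200 to 800 bp, and whether untagged pb was also present is not given in the sources used here. The 3 biological replicates form a single group, so the data hold no contrast between conditions, and no p-value is given.

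Neuroblasts are the neural stem cells of the fly. In the embryonic nerve cord they express a series of transcription factors in order, hb, then Kr, then the Pdm factors nub and pdm2, then cas and, in many lineages, grh, and the factor present at a division marks the birth order of the neurons made. svp encodes a nuclear receptor that ends the hb period. In later neuroblasts the RNA-binding proteins Imp and Syp form opposing gradients in time, and chinmo, a BTB zinc finger gene, is promoted by Imp and repressed by Syp. pb is a Hox gene whose product is a homeodomain protein, a class that often binds sites with a TAAT core. Whole embryos hold few neuroblasts among many cell types, so a peak here is not tied to neuroblasts.

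Read depth is unknown, and the authors' signal value has no unit in the sources used here, so peaks are given by their rank on it within a list, where 1 is the strongest. The control that the lists were called against was not analysed here. Replicate 1 stands apart in part: coding exons held 21.4% of its 30000 regions, against 12.1% in replicate 2 and 8.75% in replicate 3. Among the 2740 strongest peaks of each library the difference was larger as a ratio, though smaller in percentage points. Coding exons held 4.49% of those of replicate 1, and 0.438% and 0.547% of those of replicates 2 and 3. Of the regions assigned to the temporal factor genes, coding exons held 13 of 81 in replicate 1, 13 of 107 in replicate 2 and 6 of 86 in replicate 3. The part of that difference in the ranks below was not tested.

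The main pattern was one of position, 6 thresholded peaks spread over the DNA upstream of chinmo. The sequences at their summits are shown with that of the thresholded peak upstream of nub. For comparison, the strongest regions of Imp and hb, which lay below the threshold, are added. The sequence of the thresholded grh peak is not shown. Each is 151 bases of the dm6 reference on the plus strand, centred on the summit, with TAAT and its reverse complement ATTA in capitals. The peaks of chinmo and nub lie on chromosome arm 2L.
chinmo, rank 75 (chr2L:1638744-1638894): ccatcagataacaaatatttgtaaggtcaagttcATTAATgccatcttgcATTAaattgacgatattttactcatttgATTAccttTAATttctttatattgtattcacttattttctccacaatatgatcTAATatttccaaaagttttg
chinmo, rank 110 (chr2L:1632784-1632934): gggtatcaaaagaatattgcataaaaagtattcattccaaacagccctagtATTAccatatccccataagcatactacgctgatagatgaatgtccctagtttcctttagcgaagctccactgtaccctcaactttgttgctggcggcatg
chinmo, rank 669 (chr2L:1648760-1648910): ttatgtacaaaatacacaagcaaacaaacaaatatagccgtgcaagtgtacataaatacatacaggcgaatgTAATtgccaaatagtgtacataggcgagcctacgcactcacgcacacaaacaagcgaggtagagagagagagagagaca
chinmo, rank 875 (chr2L:1643419-1643569): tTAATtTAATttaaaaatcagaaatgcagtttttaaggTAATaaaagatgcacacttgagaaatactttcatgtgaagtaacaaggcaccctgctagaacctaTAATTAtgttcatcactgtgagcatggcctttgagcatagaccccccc
chinmo, rank 1781 (chr2L:1634278-1634428): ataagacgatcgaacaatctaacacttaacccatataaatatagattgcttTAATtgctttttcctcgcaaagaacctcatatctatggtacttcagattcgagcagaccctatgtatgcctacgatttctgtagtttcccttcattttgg
chinmo, rank 1975 (chr2L:1650092-1650242): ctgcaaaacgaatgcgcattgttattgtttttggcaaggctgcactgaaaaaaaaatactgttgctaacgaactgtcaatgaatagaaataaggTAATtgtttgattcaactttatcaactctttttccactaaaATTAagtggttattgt
nub, rank 2477 (chr2L:12586981-12587131): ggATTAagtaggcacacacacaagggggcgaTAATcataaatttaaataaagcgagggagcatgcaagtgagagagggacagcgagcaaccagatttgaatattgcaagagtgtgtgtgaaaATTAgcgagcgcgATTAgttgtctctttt
Imp, combined list rank 3100 (chrX:10825450-10825600): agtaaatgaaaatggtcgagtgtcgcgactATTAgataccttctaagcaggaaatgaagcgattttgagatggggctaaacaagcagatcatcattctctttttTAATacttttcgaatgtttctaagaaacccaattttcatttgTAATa
hb, combined list rank 8294 (chr3R:8697415-8697565): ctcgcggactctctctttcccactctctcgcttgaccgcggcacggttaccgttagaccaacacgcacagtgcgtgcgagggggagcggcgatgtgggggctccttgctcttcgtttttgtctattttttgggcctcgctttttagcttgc

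Among the temporal factor genes, chinmo, grh and nub had thresholded peaks, and hb, Kr, pdm2, cas, svp, Imp and Syp had none. The 3 of 10 genes with a peak compare with 16.3% of all protein-coding genes under the same rule. Long genes were assigned peaks more often, and of genes of at least 10 kb 40.4% had a peak. Of the temporal factor genes 7 are that long, among them the same 3 with a peak, a share near that background. The libraries taken singly gave similar counts among their 2740 strongest peaks: chinmo and grh in replicate 1 (16.4% of all genes), chinmo, grh and Imp in replicate 2 (15.9%), and chinmo, grh and nub in replicate 3 (15.9%). The peaks were unevenly divided among the 3 genes, with 6 of the 8 at chinmo.

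chinmo had 6 thresholded peaks, at ranks 75, 110, 669, 875, 1781 and 1975, a number reached by 20 protein-coding genes in all (0.143%). That share is over genes of every length, and none was taken over long genes, which were assigned peaks more often. All 6 summits lay upstream of the gene and none in its body of 53.4 kb (FBgn0086758, 2L 1651258 to 1704682, plus strand, dm6). The chinmo summits stood 1091, 2423, 7764, 12439, 16905 and 18399 bp upstream of its 5′ start site, spread over 17.3 kb with spacings of 1332 to 5341 bp. By the annotation they are intergenic, in the gap of 37.1 kb between chinmo and RFeSP, the next protein-coding gene upstream. The non-coding gene lncRNA:CR45695 (2L 1646932 to 1647163, minus strand) lies between these peaks and holds none of them. Its start is nearer than that of chinmo to every one of these summits except the one 1091 bp upstream. The assignment to chinmo thus rests on a rule that leaves non-coding start sites out.

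The strongest chinmo peak, 12439 bp upstream at 2L 1638745 to 1638983, was ranked 142, 70 and 52 in replicates 1, 2 and 3, a mean of 88.0 ± 47.6 (SD, n = 3). The next, 18399 bp upstream at 2L 1632709 to 1632969, was ranked 167, 97 and 95, a mean of 119.7 ± 41.0 (SD, n = 3). Both stood among the 200 strongest peaks of every library, and the first was ahead of the other in each of them. They are the only assigned summits of the temporal factor genes among the 500 strongest of the combined list. The peak 2423 bp upstream at 2L 1648630 to 1649039 was ranked 914, 1107 and 404, a mean of 808.3 ± 363 (SD, n = 3).

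Each of the other chinmo peaks lacked, in 1 library, a summit within 100 bp among the 2740 strongest. The peak 7764 bp upstream at 2L 1643417 to 1643549 was ranked 1356 in replicate 1 and 526 in replicate 2. In replicate 3 no summit lay within 100 bp of it, and the region that overlapped it was ranked 692. The peak 16905 bp upstream at 2L 1634148 to 1634557 was ranked 1673 in replicate 2 and 1501 in replicate 3. In replicate 1 the nearest summit, 39 bp away, was ranked 23676, and the strongest region overlapping the peak was ranked 3934. The peak nearest to the gene, 1091 bp upstream at 2L 1649962 to 1650371, was ranked 2564, 3197 and 1339, a mean of 2366.7 ± 945 (SD, n = 3), outside the 2740 strongest peaks of replicate 2.

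**Figure D1:**
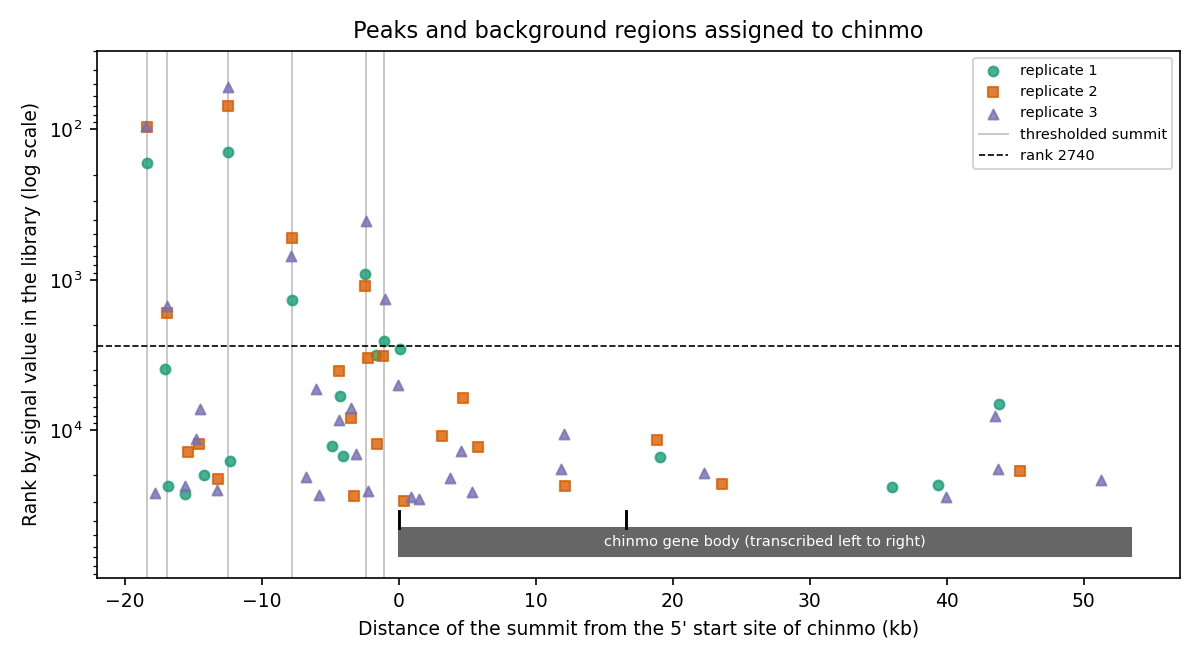
Rank by signal value (log scale, strongest at the top) of every region assigned to chinmo in each library, against the distance of its summit from the 5′ start site in kb. Grey lines mark the 6 thresholded summits, the dashed line rank 2740, and the short ticks above the gene body the 2 annotated start sites; every region above the dashed line lies upstream of the gene.

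The chinmo start sites themselves were weakly marked. The region nearest to the 5′ start site was ranked 2899 in replicate 1 (65 bp downstream), 29538 in replicate 2 (376 bp downstream) and 5031 in replicate 3 (44 bp upstream). In the combined list it was ranked 6685, with its summit 39 bp downstream. No region of any list lay within 1000 bp of the internal start site, 16589 bp downstream of the 5′ start site. In the body of chinmo the strongest regions were ranked 2899, 6141 and 8011 in replicates 1 to 3, and the body held 5, 8 and 12 regions, or 0.936, 1.5 and 2.25 per 10 kb. The stretch of 17.3 kb bounded by the outermost thresholded summits held 13, 13 and 16 regions, or 7.51, 7.51 and 9.24 per 10 kb, against 2.24 per 10 kb over the whole genome in each list. These counts leave out library summits of the outermost peaks that fell just past the bounds. Among those were the summits of rank 97 in replicate 2 and rank 95 in replicate 3. That stretch was drawn from the peaks themselves, so its density is a description. Between it and RFeSP lay 2 more thresholded peaks, at ranks 1402 and 1752, with summits 26358 and 30305 bp from the chinmo start site. Both lay in lncRNA:CR44603 (2L 1618637 to 1626021), had RFeSP as the nearest protein-coding start site, and were not counted for chinmo.

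grh, which encodes the Grainyhead transcription factor and acts late in the cascade, had 1 thresholded peak, at rank 1351. It spanned 2R 17804758 to 17805167 (dm6), with its summit in an intron 2096 bp downstream of the nearest start site of grh (FBgn0259211). It was ranked 1208, 1385 and 2127 in replicates 1 to 3, a mean of 1573.3 ± 488 (SD, n = 3), within the 2740 strongest peaks of all of them. A further grh region 141 bp upstream of the outermost start site stood just below the threshold, at rank 2797 of the combined list, and was ranked 1738, 14946 and 4378 in replicates 1 to 3. Replicate 1 alone placed it among the 2740 strongest peaks. In all, 14 regions of the combined list were assigned to grh, 13 of them in the gene body of 41.7 kb.

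nub, the POU homeodomain gene that with its neighbour pdm2 forms the Pdm stage, had 1 thresholded peak, at rank 2477. It lay in the promoter, at 2L 12586851 to 12587260, with its summit 569 bp upstream of the start of nub (FBgn0085424). Its ranks of 2949, 3357 and 1819 average 2708.3 ± 797 (SD, n = 3), and replicate 3 alone placed it among the 2740 strongest. The best region of pdm2 was ranked 16309, 9459 and 8991, a mean of 11586.3 ± 4100 (SD, n = 3), so nub stood above its paralogue in each library. Below the threshold the nearest assigned regions of the combined list were grh at rank 2797, Imp at 3100 and chinmo at 4591. The 3 libraries put the best pdm2 region at different places: 1477 bp upstream of a start site in replicate 1, and in an intron and in a coding exon of the gene in replicates 2 and 3.

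**Figure D2:**
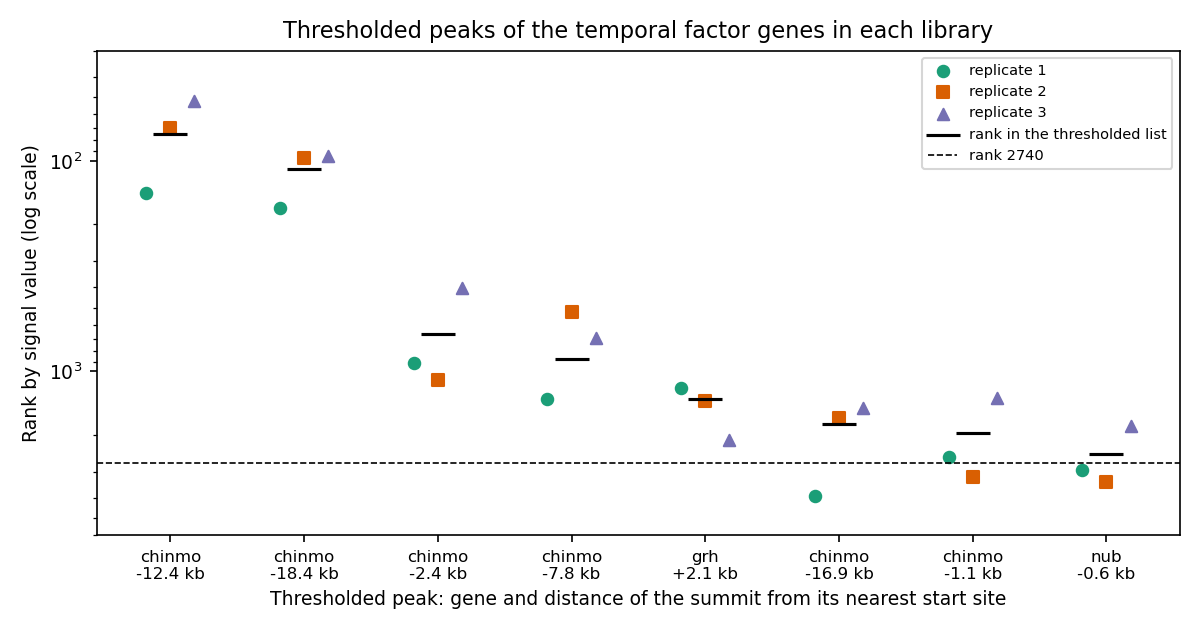
Rank (log scale) of the 8 thresholded peaks of the temporal factor genes in each library, taking the strongest region that overlaps each peak, with the rank in the thresholded list as a black bar; signed distances from the nearest start site of the gene stand below. The leftmost chinmo peaks are within rank 200 in every library, while 3 peaks fall below rank 2740 (dashed) in 1 or 2 libraries.

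The remaining embryonic factors had only weaker regions. hb, the zinc finger gene that opens the cascade, had its best region at ranks 5923, 7359 and 7676, a mean of 6986 ± 934 (SD, n = 3). Each lay in a promoter window of the gene, in replicates 1 and 2 at the outermost start site and in replicate 3 at the other one. Kr, the zinc finger gene of the next stage, had no assigned region in replicate 1. It was ranked 10548 in replicate 2, in a coding exon within the Kr body, and 11028 in replicate 3, 34 bp upstream of the Kr start site. Both regions also lay within the body of the overlapping gene CG9380. cas, a zinc finger gene of the late stage, was ranked 10223 in replicate 1, in a coding exon, and 21566 in replicate 2, in its promoter window, and had no region in replicate 3. svp was ranked 3923, 6409 and 4393, a mean of 4908.3 ± 1320 (SD, n = 3). The libraries put the best svp region at different places, in replicates 2 and 3 at separate intronic sites. In replicate 1 the best svp region lay at the promoter of CG44038, which is nested in svp, so it cannot be told apart from a region of that gene.

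Of the post-embryonic genes besides chinmo, Imp came closest to the threshold. Its best regions were ranked 3428, 2469 and 6014, a mean of 3970.3 ± 1830 (SD, n = 3), and the strongest in the combined list (rank 3100) had its summit 1248 bp upstream of the outermost start site, on X. That upstream site was the best Imp region in replicate 2 and not in the others. Syp was ranked 4787, 6129 and 18611, a mean of 9842.3 ± 7620 (SD, n = 3), a spread nearly as large as the mean. Its best region also differed in place, lying in an intron in replicate 2 and in a promoter window in replicate 3. The best Syp region of replicate 1 lay in a coding exon within the body of CG31195, a gene nested in Syp, so the gene it belongs to cannot be told apart.

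For comparison, the best rank of a protein-coding gene with any region was 7928.5, 8503.5 and 8423 at the median in replicates 1 to 3, and 3812, 3779 and 3630 for genes of at least 10 kb. The median over the temporal factor genes with a region was 3923, 6269 and 6014. chinmo and grh stood above the median of long genes in every library, nub also, Imp in replicates 1 and 2, and svp, Syp and pdm2 in none. hb, Kr and cas are shorter than 10 kb. Of these, hb was above the median of all genes in each library, while Kr and cas were below it wherever they had a region.

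**Figure D3:**
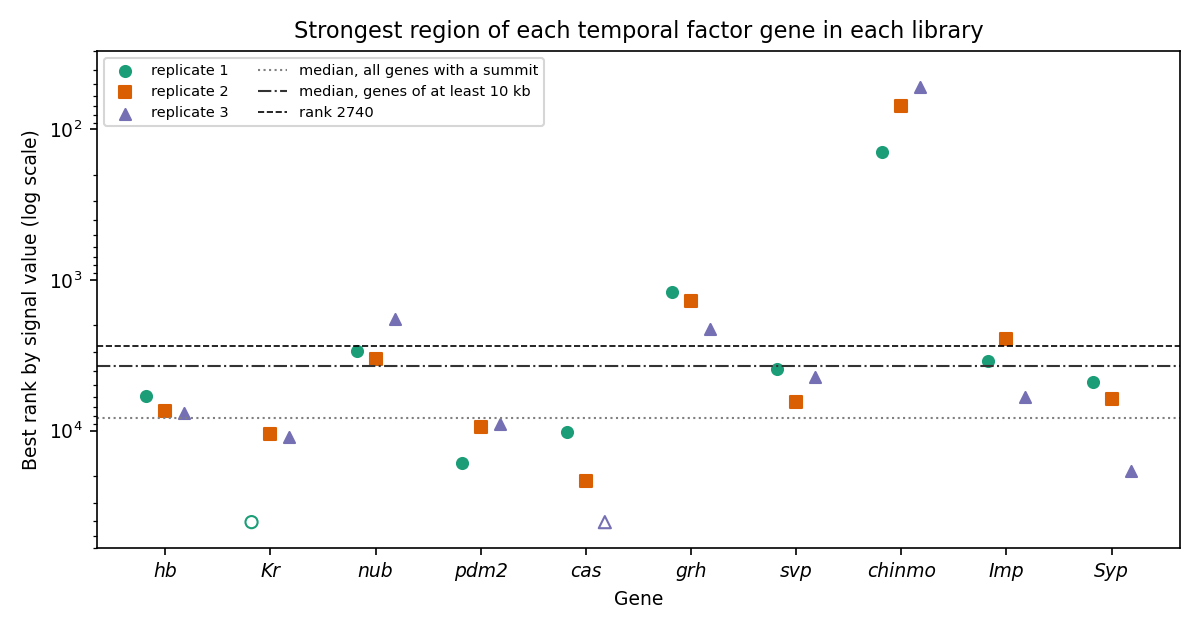
Best rank by signal value (log scale) of each temporal factor gene in each library, in the order of the cascade and then the post-embryonic genes. Open symbols mark a library whose list held no region of the gene, and lines give the mean over libraries of the median best rank of all genes with a summit and of genes of at least 10 kb; chinmo stands at 52 to 142, ahead of grh at 1208 to 2127.

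Late and early embryonic factors were not ordered alike by the libraries when the embryonic cascade was taken alone. The median best rank of the late factors cas and grh was 5715.5, 11475.5 and 16064 in replicates 1, 2 and 3, where cas, with no region in replicate 3, was set just below the list, at 30001. For the early factors hb, Kr, nub and pdm2 the median was 11116, 8409 and 8333.5, with Kr set to the same value in replicate 1. The difference, late minus early, was -5400.5 places in replicate 1, where the late factors ranked stronger, and 3066.5 and 7730.5 places in replicates 2 and 3, where they ranked weaker. Its mean was 1798.8 ± 6656.7 places (SD, n = 3), smaller than its spread between libraries. With chinmo and Imp counted as early and Syp as late, the difference was 111.5, 771.0 and 11766.0 places in replicates 1 to 3. It was of one sign throughout, with a mean of 4216.2, or 441.2 without replicate 3. In replicates 1 and 2 that sign rests on chinmo, which was chosen with earlier results of these data known. With chinmo left out, the middle early gene there is hb, at ranks 5923 and 7359. That is behind Syp, the middle late gene, at 4787 and 6129. The late group holds grh, with the best rank of the embryonic factors in replicates 1 and 2, together with cas, with the poorest or no rank in replicates 2 and 3. Within the early group nub led in each library.

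In the combined list the temporal factor genes were assigned 94 regions, with 26 at chinmo, 15 at svp, 14 at grh, 11 at nub, 9 at Imp, 7 at Syp, 4 each at hb and pdm2, and 2 each at Kr and cas. A region of this list was assigned to all 10 genes, against 71.3% of protein-coding genes. Of the 26 chinmo regions 17 lay upstream, while nub, pdm2, grh, Imp and Syp had 1 each upstream and the others had 0. The gene bodies held 5.85 regions per 10 kb at hb, 5.22 at cas, 4.18 at Kr, 3.41 at svp, 3.12 at grh, 2.47 at nub, 2.2 at Imp, 1.68 at chinmo, 1.11 at Syp and 1.03 at pdm2. The values of hb, cas and Kr rest on 4, 2 and 2 regions. All protein-coding genes held 2.48 per 10 kb, and the median of genes of at least 10 kb was 2.3.

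**Figure D4:**
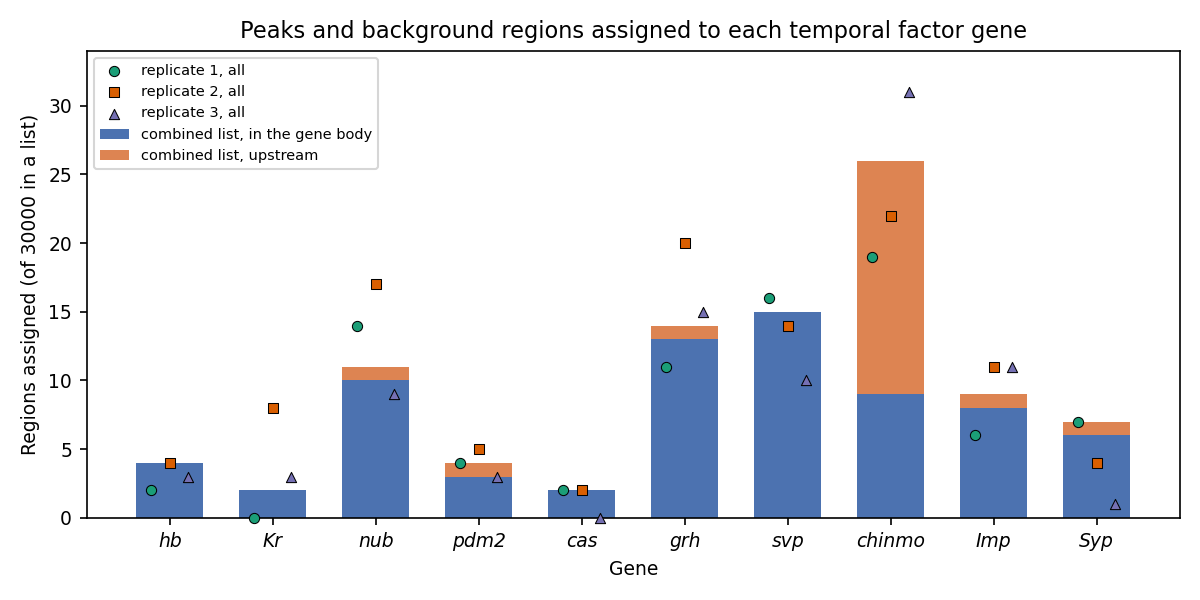
Number of regions assigned to each temporal factor gene, as stacked bars for the combined list (gene body and upstream) and as symbols for each library. chinmo has the most regions in every list, and in the combined list 17 of its 26 lie upstream, against at most 1 at any other gene.

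By place, 6 of the 8 thresholded summits were intergenic, 1 intronic and 1 in a promoter (within 1000 bp of a start site), whereas 63.2% of all thresholded summits were in promoters and 11.0% intergenic. All the intergenic ones are those of chinmo. In the combined list promoters held 23.4% of the 94 regions against 39.6% of all, introns 39.4% against 27.8%, coding exons 16.0% against 14.8% and intergenic sequence 20.2% against 16.3%. Of the 8 thresholded peaks 3, all at chinmo, were narrower than the usual width of 410 bp (239, 261 and 133 bp), and so were 19.4% of all thresholded peaks. A summit within 100 bp was present in all 3 libraries for 7 of the 8 peaks, against 88.4% of all thresholded peaks. Of the 8, 4 were among the 2740 strongest of all 3 libraries (46.7% of all), namely the peaks of chinmo at ranks 75, 110 and 669 and that of grh.

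The sequence within 100 bp of the summits was searched on both strands for 9 short motifs. TAAT, the homeodomain core, occurred in all 8 windows against 83.6% of the 2740 thresholded windows, with 9 matches at the strongest chinmo peak and 6 at the chinmo peak of rank 875, and the capitals above show those in the inner 151 bases. The windows of the temporal factor genes were also poorer in G and C, 36.8% on average against 40.5%, and the window with most TAAT matches had the lowest content of the 8, 28.4%. The longer homeodomain sequence TAATTA, whose matches also hold TAAT, occurred at chinmo rank 875 and at the grh peak (2 of 8 windows against 12.3%). TGATNNAT, a form bound by Hox proteins with their cofactor Exd, occurred at chinmo rank 110 only (1 of 8 against 10.9%). GAGAG, the GAGA factor core, occurred in 5 of 8 windows against 28.9%. That excess was not present within 50 bp of the summit, where 1 of 8 windows (12.5%) held it against 13.9% of all. The chinmo peak of rank 669 had 12 overlapping matches of GAGAG on either strand, part of them in the repeat at the right end of its sequence above.

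CACNCACA occurred in 2 of 8 windows against 9.89%. CAGGTA (the Zelda core), TATCGATA (DREF), AACCGGTT (Grainyhead) and GGTCACAC occurred in none, against 4.31%, 4.42%, 0.255% and 2.48% of all windows. Over the 94 regions of the combined list, set against all 30000, TAAT occurred in 64.9% against 67.8%, TAATTA in 5.32% against 8.19%, TGATNNAT in 9.57% against 9.58% and GAGAG in 33.0% against 26.6%. CACNCACA occurred in 17.0% of the 94 regions against 8.93% of all. The remaining motifs occurred as follows: CAGGTA in 6.38% against 4.72%, TATCGATA in 1.06% against 1.36%, GGTCACAC in 2.13% against 1.31%, and AACCGGTT in 0 regions against 0.367%.

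Other genes of temporal patterning and of neuroblast identity were read under the same rule. Among 24 further temporal patterning genes 8 had a thresholded peak (33.3%, against 16.3% of all protein-coding genes), and among the 12 of them of at least 10 kb 7 did (against 40.4% of all genes of that length). The strongest were at slp2, a forkhead gene of the optic lobe series (rank 169), the ecdysone receptor gene EcR (rank 452), dac (rank 1039) and the homeobox gene hth (rank 1149). Among 22 genes of neuroblast identity and division 8 had a peak (36.4%, against the same 16.3%), among them 5 of the 7 that are at least 10 kb long (against 40.4%). There the strongest were brat, a translational repressor that limits self-renewal (rank 238, 3 peaks), the ETS factor gene pnt (rank 405, 3 peaks), pros, which drives neuronal differentiation (rank 806), and numb, a Notch inhibitor (rank 857, 2 peaks). None of these genes had as many peaks as chinmo, and its best rank of 75 was ahead of theirs. chinmo and these lists were chosen with earlier results of these data known, so that ordering is a description.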

How the data were processed

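The authors deposited narrowPeak lists on dm6 and dm3, per the labels and the deposited notes. Every library has a list from its own alignments with 1 control, the combined list rests on all alignments, and the thresholded list was derived from these by IDR. The deposited score of each peak is the authors' signal value, whose statistic is not given in the sources used here, nor are the aligner, caller and depth. Only the dm6 lists were used, since no dm3 annotation was at hand. Summits were column 2 plus column 10, with positions counted from 1. Genes were those of Ensembl release 115, and sequences those of the RefSeq Release 6 genome. Peaks were matched between lists when summits lay within 100 bp. Classes were assigned in the order promoter, 5′ UTR, coding exon, 3′ UTR, intron and intergenic. A gene absent from a list was given rank 30001 in the early and late medians. The gene symbol Oaz was read as L. The members and the gene lists were chosen with earlier results of these data known. The text names all members and up to 4 genes with the strongest peaks of each further list, and RFeSP and genes nested in or near a member were named after their values were seen. 1 result is not reported here. The code was tested on simulated summits, with Python 3.11.15, numpy 2.4.6, pandas 2.3.3 and scipy 1.17.1. Alternatives were other rules for assigning summits, the 1370 strongest peaks, other match distances and motif windows, other early and late sets, and leaving out each replicate. A match by overlapping intervals was added after seeing the data.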

Additional observations from a re-analysis of the deposited data

How the results depend on the processing

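All 6 chinmo peaks, and the nub peak, rest on the nearest protein-coding start site, with non-coding genes left out. With gene bodies only, 1 of the genes (grh) had a thresholded summit, the members had 1 summit and chinmo had 0. With gene bodies, or nearest start sites at most 5000 bp from the summit, the members had 4 summits. Of chinmo this rule kept only the peaks 2423 and 1091 bp upstream, and lost those of ranks 75 and 110. Among the 1370 strongest peaks they had 5. Leaving out each replicate in turn keeps thresholded peaks among the 2740 strongest of both other libraries. Without replicates 1, 2 and 3 this kept 1619, 1454 and 1624 of all 2740 thresholded peaks. Of the members' 8 summits it left 5 in each case, a share not far from that of all peaks. They lay at 2 genes (chinmo and grh, never nub), with 4 chinmo peaks, always including those of ranks 75, 110 and 669. The late minus early difference changed sign with hb and Kr as the only early factors (-1004.2 places), with the median rank of each gene's regions (-946.0) and without replicate 3 (-1167.0). It was 5398.5 without replicate 1, where both other libraries had one sign, and 1165.0 without replicate 2. With chinmo, Imp and Syp added it was 4216.2, and all 3 libraries had one sign, which in replicates 1 and 2 rests on chinmo. The best rank of chinmo averaged 5683.7, and that of nub 6180.0, with gene bodies only. The share of windows with GAGAG was 12.5% within 50 bp of the summit (13.9% of all windows) and 62.5% within 100 bp (28.9% of all). Matching by overlapping intervals found all 8 peaks in the 3 libraries, and 5 among the strongest of each. No share over all thresholded peaks is given for that match. Depth, and so any limit on weak peaks, is unknown. No paired analysis was possible because all libraries form 1 group.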
